A study of Mus musculus with 2 samples.

Results

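The level of 10 genes of the Bcl2 family was read in mouse common myeloid progenitors: Bcl2, Bcl2l1, Mcl1, Bax, Bak1, Bcl2l11, Bbc3, Pmaip1, Bid and Bad. They were taken by symbol through their Ensembl gene IDs, with earlier results of these data known. All 10 members were found among the 43346 Ensembl genes of the gene tables. The Bcl2 family sets whether a cell opens its outer mitochondrial membrane, the committing step of intrinsic apoptosis. Survival proteins (Bcl2, Bcl-xL from Bcl2l1, and Mcl1) hold back the effectors Bax and Bak1, which form the pores. BH3-only proteins (Bim from Bcl2l11, Puma from Bbc3, Noxa from Pmaip1, Bid and Bad) bind the survival proteins through a short helix, the BH3 domain, and some of them also activate the effectors. In blood formation Mcl1 is known to be needed by stem and progenitor cells, and loss of Bim leads to an excess of blood cells.

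The cells were primary common myeloid progenitors, the bone marrow cells from which the granulocyte, monocyte, platelet and red cell lines arise. They came from C57BL/6J mice, male and adult, of 5 to 6 weeks, with no treatment or mutation named, and formed 1 group of 2 libraries. Total RNA, 100 ng depleted of ribosomal RNA, was made into libraries with a ScriptSeq kit. The libraries are called biological replicates 1 and 2 and carry separate biosample labels but share 1 donor label, and their spread may be partly technical. There was no second condition, and no p-value was computed.

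The libraries summed to 28158803 (replicate 1) and 84041054 (replicate 2) expected counts over Ensembl genes, a ratio of 2.98. Expected counts are estimated reads per gene, and those of all 10 members were whole numbers in both libraries. TPM, a share of all transcripts, is corrected for transcript length, so levels of different genes are compared on that scale. CPM, a share of the library total, is not corrected for length and was used between libraries only. In bulk RNA fewer cells with a transcript and less transcript per cell cannot be told apart. All 10 of the 10 progenitor markers read stood at 1 TPM or more in both libraries, among them Mpo at 357 ± 60.1 TPM (SD, n = 2), Cd34 at 123 ± 2.84 and Kit at 36.6 ± 4.47. Flt3, Spi1, Gata2, Gata1, Fcgr2b, Cebpa and Fcgr3 stood between 2.56 ± 1.31 TPM (Fcgr3) and 22.9 ± 2.80 TPM (Flt3).

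The BH3 domain is what the 10 proteins share, and its coding stretch is shown for 9 members because the transcript models of several genes differ in whether they hold it. The capitals mark 6 codons, for leucine, any 3 residues, then glycine, alanine or serine, then aspartate, and 15 bases stand on each side. Each is the sense strand, 5′ to 3′, and each lies in 1 coding exon. They were read from the GENCODE M21 transcripts Bcl2-201, Bcl2l1-201, Mcl1-201, Bax-201, Bak1-202, Bcl2l11-205, Bbc3-201, Bid-201 and, for Bad, Bad-201, the longest of its coding models.
Bcl2: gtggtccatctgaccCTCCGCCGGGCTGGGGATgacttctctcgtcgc
Bcl2l1: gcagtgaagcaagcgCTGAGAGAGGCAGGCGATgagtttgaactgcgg
Mcl1: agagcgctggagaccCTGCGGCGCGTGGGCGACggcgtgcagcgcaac
Bax: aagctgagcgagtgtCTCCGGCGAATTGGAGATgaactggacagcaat
Bak1: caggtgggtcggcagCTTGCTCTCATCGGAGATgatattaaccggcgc
Bcl2l11: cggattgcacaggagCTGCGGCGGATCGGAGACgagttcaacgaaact
Bbc3: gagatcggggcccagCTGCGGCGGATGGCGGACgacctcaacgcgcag
Bid: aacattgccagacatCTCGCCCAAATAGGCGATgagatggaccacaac
Bad: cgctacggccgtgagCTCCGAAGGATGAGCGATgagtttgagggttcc

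The codon before the aspartate codes glycine in 7 of the 9 stretches, alanine in Bbc3 and serine in Bad. Compared base by base without gaps, the closest of the 36 pairs were Bcl2l11 and Bbc3, with 29 of 48 bases alike (60.4%), and the most distant were Bcl2 and Bid, with 16 alike (33.3%). The residue pattern is a loose one: it occurred at least once in 6993 of 20295 genes with a CCDS coding part (34.5%), so a match by itself does not mark a BH3 domain. It occurred once in each printed coding part. On GRCm38 the stretches lie at chr1:106712569-106712616 (minus strand) for Bcl2, chr2:152829691-152829738 (minus) for Bcl2l1, chr3:95659421-95659468 (plus) for Mcl1, chr7:45465991-45466038 (minus) for Bax and chr17:27022525-27022572 (minus) for Bak1. Among the BH3-only genes they lie at chr2:128147135-128147182 (plus) for Bcl2l11, chr7:16313758-16313805 (plus) for Bbc3, chr6:120897283-120897330 (minus) for Bid and chr19:6950777-6950824 (plus) for Bad.

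Mcl1 was the highest of the 10 members and Bbc3 the lowest. Of the 10 members, 9 reached 1 TPM in both libraries and Bbc3 did not. Over all genes 23.0% did so, and over the 21461 nuclear protein-coding genes 42.5%. Nuclear protein-coding genes held 20.1% and 21.5% of all TPM. With TPM rescaled to these genes alone Bbc3 stood at 1.44 and 2.56, so that all 10 members reached 1. The share of genes that reach 1 on the rescaled values was not computed, so this count has no background. From high to low by mean TPM the order was Mcl1, Bak1, Bcl2, Bcl2l11, Bad, Bax, Bid, Pmaip1, Bcl2l1 and Bbc3. Of the 9 neighbouring pairs in that order, 5 had library values that did not overlap. The 4 genes Bcl2l11, Bad, Bax and Bid were not apart from their neighbours within that run, and Pmaip1 and Bcl2l1 were not apart from each other. The places of Bak1 and Bcl2l11 rest on how reads were divided among transcript models: with all counts of a gene set over 1 length, Bak1 had rank 3 and Bcl2l11 rank 7. Bcl2l1 kept its place at a lower level.

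**Figure D1:**
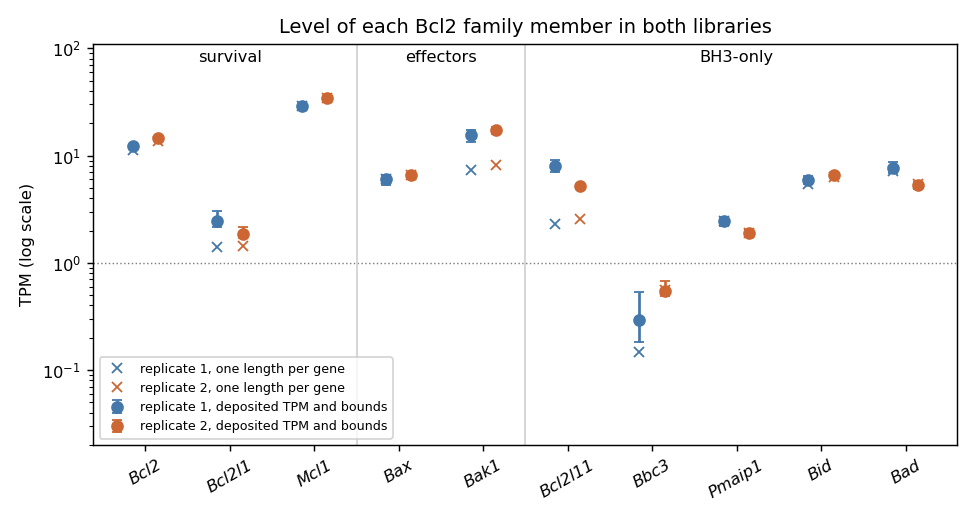
TPM of the 10 members on a log axis, by role, in replicate 1 (blue) and replicate 2 (orange); dots are deposited TPM with the deposited interval bounds, crosses are TPM recomputed from all counts of a gene over 1 length, and the dotted line is 1 TPM. Dots and crosses lie apart for Bcl2l11, Bak1 and Bcl2l1 in both libraries and for Bbc3 in replicate 1, and only Bbc3 lies under the line.

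Survival genes were led by Mcl1, a short-lived protein that binds Bim, Noxa and Bak. Mcl1 (ENSMUSG00000038612.12, chr3:95658788-95663176, plus strand) stood at 28.84 TPM in replicate 1 and 34.51 in replicate 2, from 7191 and 22057 counts. Its mean of 31.7 ± 4.01 TPM (SD, n = 2) was above 95.2% of nuclear protein-coding genes. The deposited bounds, 27.7 to 29.1 and 33.8 to 34.7 TPM, did not meet, whereas the CPM ratio of replicate 2 over replicate 1 was 1.03.

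Bcl2, the founding survival gene, came next at 12.38 and 14.66 TPM, a mean of 13.5 ± 1.61. Bcl2 (ENSMUSG00000057329.7, chr1:106538178-106714274, minus strand) had 6044 and 18586 counts, fewer than Mcl1 in both libraries and over a longer transcript. Mcl1 TPM exceeded Bcl2 TPM 2.33-fold in replicate 1 and 2.35-fold in replicate 2, so the 2 libraries gave nearly the same proportion. The bounds of Bcl2, 11.9 to 12.5 TPM in replicate 1 and 14.3 to 14.8 in replicate 2, also lay apart, with a CPM ratio of 1.03.

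Bcl2l1, which encodes the survival protein Bcl-xL and is known for its part in late red cell formation, was much lower at 2.47 and 1.87 TPM, a mean of 2.17 ± 0.424. Bcl2l1 (ENSMUSG00000007659.14, chr2:152780668-152831728, minus strand) had 235 and 614 counts. Mcl1 was 11.7-fold above it in replicate 1 and 18.5-fold in replicate 2. Of the summed survival TPM, Mcl1 held 66.0% and 67.6%, Bcl2 28.3% and 28.7%, and Bcl2l1 5.65% and 3.66%. The sum itself was 43.69 TPM in replicate 1 and 51.04 in replicate 2.

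Mcl1 counts fell almost wholly on 1 full-length model, Mcl1-201 of 331 codons, with 100% of the gene's TPM in replicate 1 and 99.97% in replicate 2. A shorter coding model, Mcl1-202 of 285 codons, had 0 and 1.42 counts. For Bcl2 the 236-codon model Bcl2-201 held 86.9% and 89.0% of TPM. The 199-codon model Bcl2-202, a single exon with 1966 bases inside the intron of Bcl2-201, held 13.1% and 10.98%. Both Bcl2 models carry the BH3 stretch shown above. Reads in that intron cannot be told apart from unspliced Bcl2 RNA, which total RNA contains.

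Bcl2l1 was divided among several models, and the division differed between libraries. The processed transcript Bcl2l1-209, with no coding part, took 58.1% of TPM (replicate 1) and 31.6% (replicate 2), but 34.7% and 14.2% of counts. Bcl2l1-201, the 233-codon Bcl-xL model, held 31.0% and 48.1% of TPM and 55.2% and 63.0% of counts. Models that code with the BH3 stretch in frame summed to 1.04 and 1.28 TPM. With all Bcl2l1 counts set over the length of Bcl2l1-201, the level was 1.40 and 1.42 TPM, 1.54-fold under the deposited mean, and the 2 libraries stood level. Bcl2l1-205 was listed at 16.6% of TPM in replicate 2 and at 0 in replicate 1.

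By deposited TPM the effectors were led by Bak1, which sits in the outer mitochondrial membrane of healthy cells. Bak1 (ENSMUSG00000057789.9, chr17:27019810-27029009, minus strand) stood at 15.43 TPM (bounds 13.5 to 17.3) and 17.16 TPM (16.0 to 18.3), a mean of 16.3 ± 1.22, from 1220 and 3477 counts. Bax, which moves from the cytosol to mitochondria when activated, stood at 6.03 TPM (5.30 to 6.62) and 6.57 TPM (6.07 to 6.95), a mean of 6.30 ± 0.382, from 301 and 854 counts. Bax (ENSMUSG00000003873.10, chr7:45461697-45466898, minus strand) has 1 model in the files, of 192 codons. By deposited TPM Bak1 exceeded Bax 2.56-fold and 2.61-fold and held 71.9% and 72.3% of the effector sum of 21.46 and 23.73 TPM. For both genes the deposited bounds of the 2 libraries overlapped.

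Much of the Bak1 TPM rested on few reads. A 416-base Bak1 model, ENSMUST00000133448.1, which is absent from GENCODE M21, took 50.2% (replicate 1) and 48.9% (replicate 2) of the gene's TPM but only 9.79% and 10.1% of its counts, 119.41 and 351.21. Its modelled effective length was 202 bases in replicate 1. Without it Bak1 stood at 7.69 and 8.76 TPM. Counting only transcripts classed as protein coding, Bak1 stood at 2.19 and 1.26 TPM, below Bax (6.03 and 6.57) in both libraries. With all Bak1 counts over the length of Bak1-202, the level was 7.37 and 8.17 TPM, 2.10-fold under the deposited mean, above Bax in both libraries and below Bcl2 in both.

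Most Bak1 counts went to Bak1-201, a model that the annotation classes as nonsense-mediated decay, the route that destroys RNA with an early stop. Bak1-201 had 737.91 and 2588.11 counts, 60.5% and 74.4% of the gene, and 35.6% and 43.7% of its TPM. Bak1-202, the 209-codon coding model, had 362.69 and 537.68 counts, 29.7% and 15.5%, and 14.2% and 7.35% of TPM. Bak1-201 holds a 20-base exon at chr17:27021663-27021682 that Bak1-202 skips. The 2 junctions are shown with 24 bases on each side and the exon in capitals, since this is the only exon that separates the coding parts.
Bak1-201: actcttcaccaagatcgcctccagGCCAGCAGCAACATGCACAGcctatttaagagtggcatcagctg
Bak1-202: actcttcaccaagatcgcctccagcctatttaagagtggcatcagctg

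An exon of 20 bases is not a multiple of 3, and the coding part of Bak1-201 leaves the Bak1-202 frame after 114 shared codons and ends at 151. The BH3 stretch lies before that point, so both hold it. Inclusion of a short Bak1 exon is known mainly from neurons. Bak1-202 also has a first exon 431 bases longer than that of Bak1-201, and which of these differences assigned the reads cannot be seen in tables of counts. Reads over the 20-base exon itself were not measured here. Bak1 lies wholly inside Ggnbp1, which is on the opposite strand and stood at 1.74 and 0.39 TPM, and the sources used here do not say whether counting used strand.

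**Figure D2:**
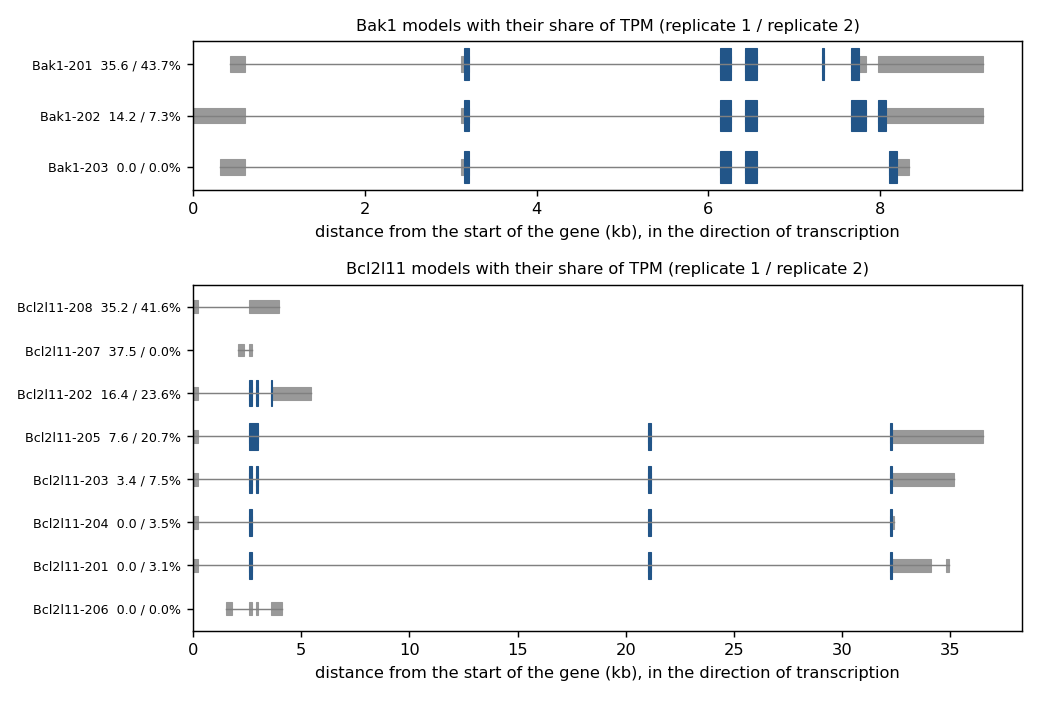
Transcript models of Bak1 (top) and Bcl2l11 (bottom) in GENCODE M21, drawn along distance from the gene's start in kb; thick blue blocks are coding, grey blocks are other exons, lines are introns, and the percentages are shares of the gene's TPM in replicates 1 and 2. Bak1-201 has 1 small coding block that Bak1-202 lacks, its coding part ends earlier, and its first exon is shorter, while the Bcl2l11 models with the largest shares end within the first 6 kb.

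As a log2 ratio, the summed survival TPM over effector TPM was 1.03 in replicate 1 and 1.10 in replicate 2 (mean 1.07 ± 0.056), that is 2.04-fold and 2.15-fold. The direction was the same in both libraries. The Bak1 models set its size: without the 416-base model the mean log2 ratio was 1.70, and with transcripts classed as protein coding only it was 2.52. The BH3-only sum was below the survival sum, at 24.37 against 43.69 TPM in replicate 1 and 19.51 against 51.04 in replicate 2. The log2 ratio was -0.84 and -1.39 (mean -1.11 ± 0.386). Bcl2l11-207, a model with no coding part, gave 3.02 TPM of the replicate 1 sum from 41 counts, and 0 in replicate 2. With only transcripts that hold the BH3 stretch in frame, the log2 ratio was -1.35 and -1.68. TPM measures RNA, and the balance of the proteins was not measured.

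Among the BH3-only genes, Bcl2l11, Bad and Bid stood at similar mean levels, Pmaip1 lower and Bbc3 lowest. Bcl2l11, which encodes Bim, a strong binder of all the survival proteins that is known to set blood cell numbers, stood at 8.05 TPM (bounds 7.07 to 9.06) in replicate 1 and 5.17 TPM (4.91 to 5.45) in replicate 2, a mean of 6.61 ± 2.04. Bcl2l11 (ENSMUSG00000027381.12, chr2:128126038-128162547, plus strand) had 844 and 2436 counts, a CPM ratio of 0.97. The TPM ratio of replicate 2 over replicate 1 was 0.642 while the modelled effective length went from 1376 to 2420 bases. Set over the length of Bcl2l11-205 the same counts gave 2.30 and 2.59 TPM, 2.71-fold under the deposited mean, with the order of the 2 libraries turned around.

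By TPM, the models behind Bcl2l11 lie mostly at the front of the gene. The processed transcript Bcl2l11-208, with 1001 bases inside the introns of Bcl2l11-205, held 35.2% and 41.6% of TPM. Bcl2l11-207, another processed transcript, held 37.5% in replicate 1 from 41 counts and had 0 counts in replicate 2. Bcl2l11-202 codes 91 codons without the BH3 stretch and held 16.4% and 23.6%. All 3 end before the later exons, as the map of the models shows. By counts Bcl2l11-208 held 35.7% and 24.3% of the gene, and Bcl2l11-205, which reaches the later exons, 26.6% and 41.3%. Reads in these introns cannot be told apart from unspliced Bcl2l11 RNA.

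Models that code Bim with its BH3 stretch summed to 0.88 TPM in replicate 1 and 1.80 in replicate 2, 10.9% and 34.8% of the gene's TPM and 34.6% and 55.3% of its counts. Bcl2l11-205, the 196-codon form known as Bim-EL, had 224.83 and 1006.21 counts and was the highest of them in both libraries. Bcl2l11-203, the 140-codon form known as Bim-L, had 67.35 and 253.24 counts. The 110-codon models Bcl2l11-204 and Bcl2l11-201 (Bim-S) had counts in replicate 2 only, 16.33 and 70.18. On TPM, Bcl2l11-205 exceeded Bcl2l11-203 in both libraries, 0.61 against 0.27 and 1.07 against 0.39.

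Bad, whose protein is held by 14-3-3 proteins when growth factor kinases phosphorylate it, stood at 7.69 TPM (6.90 to 8.64) and 5.29 TPM (4.89 to 5.69), a mean of 6.49 ± 1.70. Bad (ENSMUSG00000024959.9, chr19:6941861-6951899, plus strand) had 429 and 842 counts and a CPM ratio of 0.659, so both scales put it lower in replicate 2. All of its TPM lay on coding models that hold the BH3 stretch, led by Bad-202 of 162 codons at 71.0% and 69.8%. Bad-203 of 178 codons held 17.1% and 15.5%, and Bad-201 of 204 codons 4.81% and 14.7%. Bad shares 620 bases with Gpr137 on the opposite strand, which stood at 2.10 and 2.23 TPM. Of the Bad models read, only Bad-201 and Bad-203 reach those bases, and the leading model Bad-202 does not.

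Bid, which caspase-8 cleaves to link death receptors to mitochondria, stood at 5.87 TPM (5.44 to 6.42) and 6.60 TPM (6.30 to 6.89), a mean of 6.24 ± 0.516. Bid (ENSMUSG00000004446.8, chr6:120891930-120916853, minus strand) had 826 and 2418 counts and a CPM ratio of 0.983, and its bounds overlapped. Bid-201 of 195 codons held 92.3% and 93.6% of TPM and 98.7% and 98.8% of counts. Bid-203, whose annotated coding part of 157 bases is not a multiple of 3 and lacks the BH3 stretch, held 7.67% of TPM in replicate 1 only. That rested on 11 counts, 1.33% of the gene. The retained intron model Bid-205 held 6.37% of TPM in replicate 2 only, from 29.8 counts, 1.23% of the gene. The end of Bid shares 913 bases with Bcl2l13, another family gene on the opposite strand, at 3.37 and 4.75 TPM. Of the Bid models read, only Bid-204 reaches those bases, and it had 0 counts in both libraries.

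Pmaip1, which encodes Noxa, a BH3-only protein that binds chiefly Mcl1, stood at 2.47 TPM (2.21 to 2.65) and 1.90 TPM (1.77 to 2.01), a mean of 2.19 ± 0.403. Pmaip1 (ENSMUSG00000024521.7) had 457 and 906 counts on its 1 model and a CPM ratio of 0.666. It was lower in replicate 2 on both scales. Its coding part of 103 codons held the BH3 residue pattern at 2 places, the only member with more than 1. Mcl1 TPM was above Pmaip1 TPM in both libraries.

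Bbc3, which encodes Puma, a p53 target that binds all the survival proteins, stood at 0.29 TPM (0.182 to 0.532) from 18 counts and 0.55 TPM (0.492 to 0.677) from 174 counts, a mean of 0.42 ± 0.184. Bbc3 (ENSMUSG00000002083.8, chr7:16308393-16318205, plus strand) differed 3.25-fold by CPM and 1.90-fold by TPM, with overlapping bounds. The 18 counts of replicate 1 were put mostly on Bbc3-203, a retained intron model, at 12.33 counts and 82.8% of TPM. In replicate 2 all 174 lay on Bbc3-201, the 193-codon coding model, and Bbc3-202 had 0 counts in both libraries. Set over the length of Bbc3-201, the level was 0.148 and 0.554 TPM, which keeps Bbc3 the lowest member in both libraries.

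**Figure D3:**
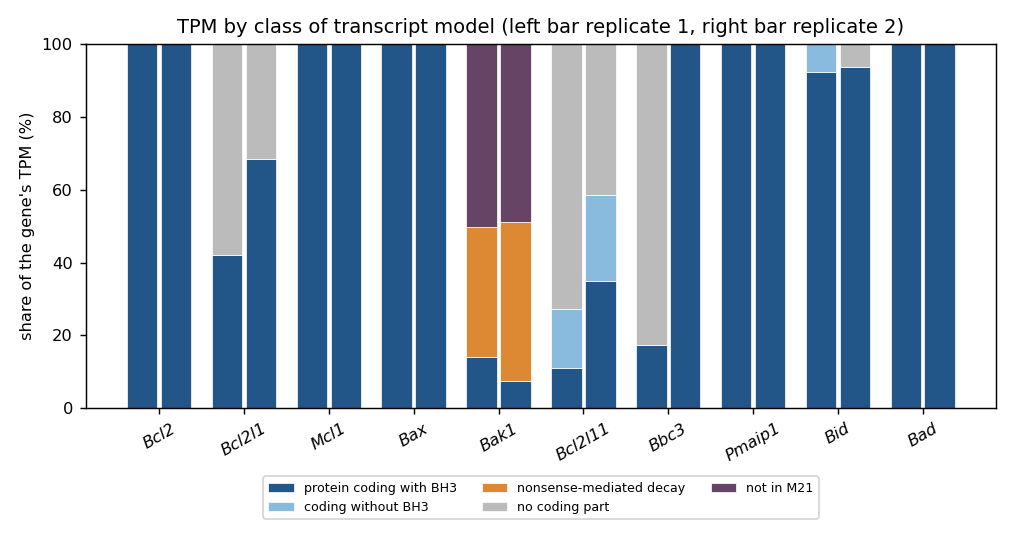
Share of each member's TPM (percent) by class of transcript model, left bar replicate 1 and right bar replicate 2; colours separate protein coding models with the BH3 stretch, coding models without it, models classed as nonsense-mediated decay, models with no coding part and the model absent from GENCODE M21. Bcl2, Mcl1, Bax, Pmaip1 and Bad are at 100% in the first class, while Bak1, Bcl2l11, Bcl2l1 and, in replicate 1, Bbc3 are split.

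By class of model the members fell into 2 kinds. In Bcl2, Mcl1, Bax, Pmaip1 and Bad all TPM lay on protein coding models with the BH3 stretch, and in Bid 92.3% and 93.6%. In Bcl2l1 that share was 41.9% and 68.4%, in Bcl2l11 10.9% and 34.8%, in Bak1 14.2% and 7.35%, and in Bbc3 17.2% and 100%. Shares of counts were higher for these 4 genes wherever the share was below 100%. The same read adds more TPM to a short model than to a long one.

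Replicate agreement was then read member by member. Of the 10 members, 1 differed 2-fold or more by CPM (Bbc3, higher in replicate 2). Of the 15102 genes with a mean of at least 10 counts, 20.8% did so either way. With replicate 2 higher it was 13.4% of them, and with replicate 1 higher 7.41%. Of the 12443 nuclear protein-coding genes with that mean, 14.8% did so either way. At 1.5-fold it was 3 members (Bbc3, Pmaip1 and Bad), against 31.5% of the 15102 genes. The other 7 members had CPM ratios between 0.878 (Bcl2l1) and 1.03 (Bcl2 and Mcl1). Deposited bounds lay apart between libraries for 6 members, higher in replicate 2 for Mcl1 and Bcl2 and higher in replicate 1 for Bcl2l11, Bad, Pmaip1 and Bcl2l1. The share of all genes with bounds apart was not computed, so this count has no background. Bcl2l1 was at the edge, with a lower bound of 2.142 TPM in replicate 1 and an upper bound of 2.138 in replicate 2. With 1 length per gene Bcl2l1 stood at 1.40 and 1.42 TPM and Bcl2l11 at 2.30 and 2.59.

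TPM and CPM did not rank the libraries alike. By TPM 6 members were higher in replicate 2, and by CPM 3 were. Those that changed side were Bax, Bak1 and Bid, higher in replicate 2 by TPM and lower by CPM. Their modelled effective lengths differed little, at ratios of replicate 2 over replicate 1 of 1.02, 1.003 and 1.02. The size ranges in the labels differed, 200 to 1000 (replicate 1) against 187 to 1606 (replicate 2), without a unit, and their part in these differences was not tested. Where a gene has a count of 0, up to 3 counts remain possible, or 0.106 CPM at the depth of replicate 1 and 0.0357 at that of replicate 2.

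**Figure D4:**
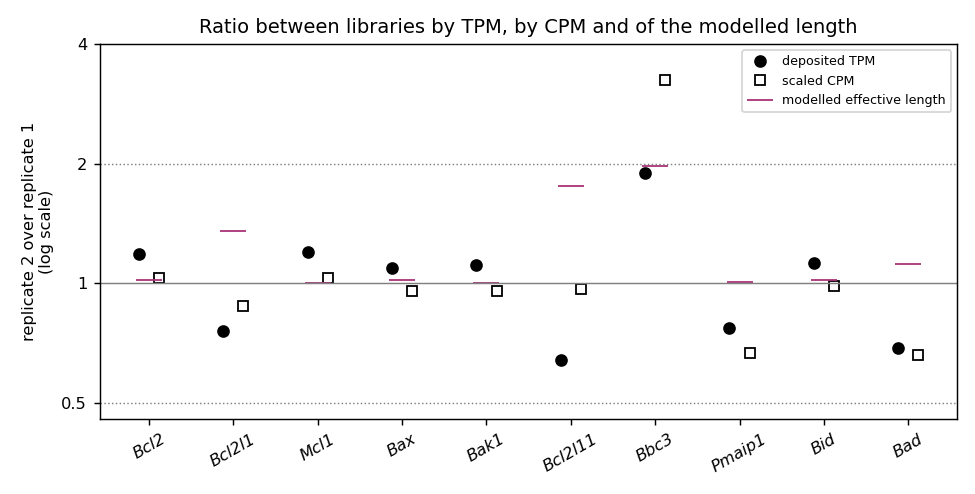
Ratio of replicate 2 over replicate 1 for each member on a log axis, by deposited TPM (filled circles), by CPM (open squares) and for the modelled effective length (bars); the solid line is 1 and the dotted lines are 2-fold. Bcl2l11 is at 0.642 by TPM and 0.97 by CPM with a length ratio of 1.76, and only Bbc3 passes 2-fold by CPM.

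Of 5 other survival genes read, 1 reached 1 TPM in both libraries: Bcl2l2, which encodes Bcl-w, at 1.63 and 2.29 TPM. Over nuclear protein-coding genes 42.5% did so. Bcl2a1b had 0 and 44 counts and Bcl2a1a 0 and 11, and these A1 genes are near-identical copies, so their counts are uncertain. Bcl2a1d and Bcl2l10 had 0 counts in both libraries. By deposited TPM, each of the 3 survival members except Bcl2l1 was above all 5 of these genes, and Bcl2l1 overlapped Bcl2l2. Set over 1 length, Bcl2l1 stood at 1.40 and 1.42 TPM, below the deposited Bcl2l2 values, which were not recomputed.

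Other death genes of the family were uneven. Of 9 read, 4 reached 1 TPM in both libraries, where 42.5% of nuclear protein-coding genes did. Bnip3l, which acts in clearing mitochondria, led at 28.81 and 17.42 TPM. Bnip3, its relative, stood at 4.32 and 5.34 TPM, Bcl2l13, a mitophagy receptor, at 3.37 and 4.75, and Moap1, a Bax-binding protein gene, at 1.16 and 2.59. Bcl2l14 stood at 0.16 and 0.68 TPM and the BH3-only gene Bmf at 0.09 and 0.08. The third effector, Bok, had 0 and 4 counts, and the BH3-only genes Bik and Hrk had 0 counts in both libraries. Bak1 and Bax were thus the only effectors of the family above 1 TPM here.

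**Figure D5:**
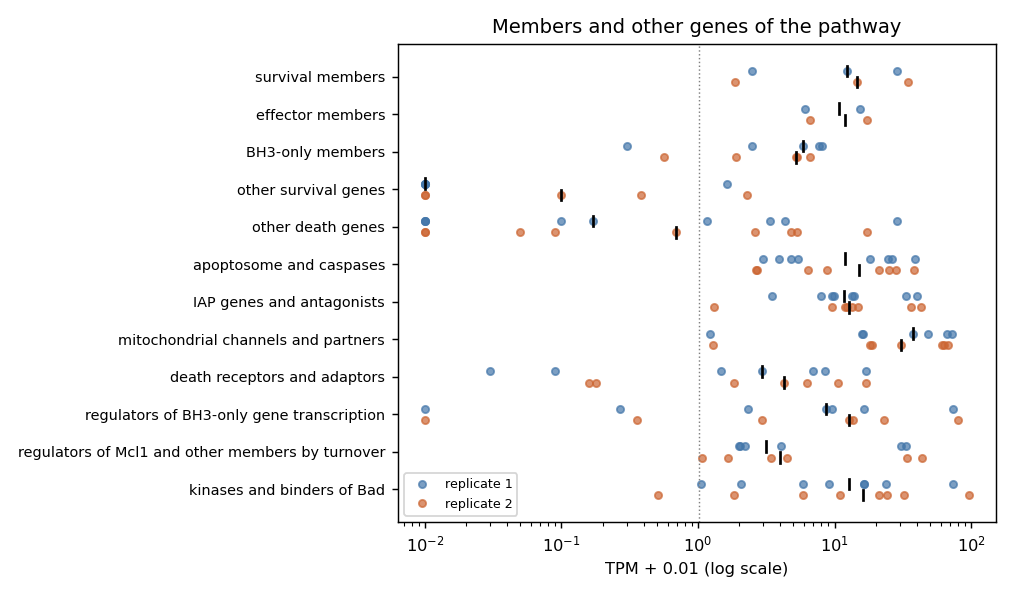
TPM plus 0.01 on a log axis for the members by role and for 9 lists of other genes of the pathway, replicate 1 in blue and replicate 2 in orange; short black bars are list medians and the dotted line is 1 TPM. Other survival and other death genes spread down to 0, while all caspase, IAP and mitochondrial genes lie above 1 TPM.

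Downstream of the mitochondrial step, all 8 of 8 apoptosome and caspase genes reached 1 TPM in both libraries. Over nuclear protein-coding genes 42.5% did so, a share that also stands beside the list counts below. The medians of this list were 11.9 and 15.1 TPM. Among protein-coding genes already at 1 TPM or more in both libraries, the median was 6.71 and 7.77. Cycs, which encodes the cytochrome c that leaks through the pores, stood at 27.4 ± 1.28 TPM, Casp8 at 24.9 ± 0.184 and Casp2 at 19.8 ± 2.09. Casp6 at 3.28 ± 0.919 and Casp9, the initiator of the apoptosome, at 2.83 ± 0.205 were lowest. Among IAP genes, which encode caspase inhibitors and relatives, and their antagonists, 8 of 8 reached 1 TPM. Birc5 led at 41.4 ± 1.77 TPM, a gene also needed for cell division, followed by Birc6, Birc2 and Htra2, while Diablo at 10.7 ± 3.84 and Sept4 at 2.38 ± 1.52 were lowest.

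Among mitochondrial channels and their partners 7 of 7 reached 1 TPM, with medians of 37.6 and 30.8 TPM, led by Vdac3 at 70.1 ± 2.60 and Vdac2, a binder of Bak, at 64.9 ± 1.99. Of 7 death receptor and adaptor genes 5 did, led by Cflar at 17.0 ± 0.0141 TPM, which holds back caspase-8. Fas at 0.08 and 0.15 TPM and Tnfrsf10b at 0.02 and 0.17 did not. These 2 receptor genes were the lowest of the list in both libraries.

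Of 7 genes that regulate transcription of BH3-only genes, 5 reached 1 TPM. Atf4 stood at 77.5 ± 4.82 TPM and Trp53, the activator of Bbc3 and Pmaip1, at 19.8 ± 4.72, beside the 0.42 TPM of Bbc3. Foxo3, an activator of Bcl2l11, stood at 11.2 ± 2.23, Ddit3 at 11.2 ± 3.65, Foxo1 at 0.26 and 0.35, and Trp73 had 0 counts. Of 6 genes for turnover of Mcl1 and other members all reached 1 TPM, led by the ubiquitin ligase gene Huwe1 at 38.7 ± 7.16 and the deubiquitinase gene Usp9x at 32.5 ± 2.34. Of 8 kinases and binders of Bad 7 did, led by the 14-3-3 gene Ywhaz at 85.4 ± 16.4 and the kinase gene Pim1 at 28.2 ± 6.06, with Pim2 lowest at 1.05 and 0.50 TPM.

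Markers of other cells that the samples could hold were read beside the members. Of 5 B cell markers 3 were at 0 in both libraries (Cd79a, Ms4a1 and Pax5), the highest was Cd79b at 3.90 ± 0.318 TPM, and the list summed to 4.13 and 3.75 TPM. Of 5 T and NK cell markers 3 were at 0 and the list summed to 0.15 and 0.48 TPM. Late red cell markers summed to 17.66 and 15.61 TPM, and mature neutrophil markers to 10.18 and 11.09, led by Ltf at 7.36 ± 0.827. Of 3 stem cell markers none reached 1 TPM in both libraries, the highest being Slamf1 at 0.945 ± 0.12 TPM, and the list summed to 1.63 and 2.51 TPM. The lymphoid progenitor marker Il7r differed between the libraries, at 0.96 TPM from 218 counts in replicate 1 and 0.13 TPM from 76 counts in replicate 2, or 7.73 against 0.905 CPM. Macrophage markers summed to 1.21 and 1.88 TPM, and stroma and endothelium markers to 8.94 and 13.25, led by Pecam1 at 10.7 ± 2.73, with Col1a1 and Cdh5 at 0. The progenitor markers summed to 536.8 and 640.75 TPM. The part of such cells in the levels of the members was not tested.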

How the data were processed

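The data were 2 libraries of 1 group. For each library the authors deposited 1 table of genes and 1 of transcripts, made on mm10 and GENCODE M4 according to its readme. Aligner, quantifier, level of the interval bounds and use of strand are not given in the sources used here. Per the file headers the tables hold expected counts, TPM with interval bounds, posterior mean TPM, FPKM and, for transcripts, the percent of the gene's abundance. Expected counts can be fractional because reads shared by models are divided.

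Members were matched by Ensembl ID without version. GENCODE M21 (GRCm38, the assembly of mm10) gave names, classes and coordinates and matched 42462 of 43346 genes. Model lengths are those of the files. Sequences came from the M21 transcripts. No protein sequence is printed, and no sequence of Pmaip1. Shares were computed from transcript TPM and from counts. The 1-length level set all counts of a gene over the deposited effective length of 1 coding model (Bcl2-201, Bcl2l1-201, Mcl1-201, Bax-201, Bak1-202, Bcl2l11-205, Bbc3-201, Pmaip1-201, Bid-201, Bad-202) and was scaled to TPM by the sum over all transcripts. CPM used TMM in edgeR 4.0.16 on expected counts rounded to whole numbers, with DESeq2 1.42.0 size factors as the alternative, in R 4.3.3. Ratios took a prior count of 0.5. Python 3.11.15, pandas 2.3.3, numpy 2.4.6 and matplotlib 3.10.9 did the rest. The TMM scaling and the 2-fold call were tested on simulated counts, and the other steps were not. Limits for a count of 0 cover counting error only.

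Members and lists were chosen with earlier results of these data known. Named genes were all members, other family genes and progenitor markers, the 4 highest and 2 lowest of each further pathway list and the highest of each further marker list. Of each member the 3 highest transcripts were named. Some genes named by this rule are not reported here. Transcripts below those, marker genes at 0 and marker list sums were added after their values were seen. No pattern likeness to other genes was computed, since 2 libraries of 1 group hold no pattern of conditions.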

Additional observations from a re-analysis of the deposited data

How the results depend on the processing

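The mean log2 ratio of survival over effector TPM, 1.07, was 2.52 with protein coding transcripts only. The 3 settings chosen after seeing the data gave 1.67 (transcripts with the BH3 stretch in frame), 1.70 (without the Bak1 model absent from M21) and 1.69 (1 length per gene). The BH3-only over survival ratio, -1.11, was -1.52 with BH3-in-frame transcripts. The Mcl1 share of survival TPM, 66.8%, was 68.3% with protein coding transcripts, 68.3% with BH3-in-frame transcripts and 69.5% with 1 length per gene. Members that differed between libraries numbered 3 at 1.5-fold. The direction of both ratios held under every setting run. With 1 length per gene 3 member levels moved by more than the spread between libraries, and all 10 moved under FPKM and under TPM rescaled to protein-coding genes, which change the scale. With counts in place of TPM the leading transcript's share moved in 6 genes. No paired analysis was possible because there is only 1 group. Reads of 1 short model carry much of Bak1's TPM, and 18 counts limit Bbc3 in replicate 1.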
